A study of Mus musculus with 6 samples.

Results

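The genes described here encode enzymes, a carrier and regulators of the pathway by which liver cells build fatty acids from acetyl-CoA. They are 10 Ensembl identifiers of the 8941 listed, chosen by name. All 10 are listed in every library and all 10 passed the filter on low values. Grouped by role, with the regulators last, they are Acly (ENSMUSG00000020917), Acss2 (ENSMUSG00000027605), Slc25a1 (ENSMUSG00000003528), Me1 (ENSMUSG00000032418), Acaca (ENSMUSG00000020532), Acacb (ENSMUSG00000042010), Fasn (ENSMUSG00000025153), Thrsp (ENSMUSG00000035686), Srebf1 (ENSMUSG00000020538) and Mlxipl (ENSMUSG00000005373).

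Livers came from male C57BL/6JRj mice of 11 to 12 weeks, an inbred laboratory strain, entrained for 2 weeks to 12 h of light and 12 h of dark. Animals were killed at zeitgeber time (ZT, counted from lights on) 0, 2 or 12, the last being the start of the dark phase. Each time point has 2 libraries, and each library is a pool of lysates from 2 mice; n below counts libraries. Cycloheximide in the lysis buffer arrested elongation, and RNase I left the mRNA fragments covered by a pair of abutting ribosomes, the disomes, which mark places where a ribosome runs into a slower one. Levels are the authors' RPKM, reads per kilobase of gene model with a scaling per library, so levels are per length. A comparison of levels between genes does not allow for how disomes are spread along each gene. The level of a gene rises with its mRNA, with ribosome load and with collisions. Monosome footprints and total RNA were not analysed here, so these were not separated. In such bulk samples fewer cells of a type and less RNA per cell cannot be told apart either. Hepatocyte, adipocyte and other marker genes could not be matched to the identifiers, so the tissue label was not checked.

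In fatty acid synthesis, citrate leaves the mitochondrion and is split to acetyl-CoA in the cytosol. Acetyl-CoA is carboxylated to malonyl-CoA, and fatty acid synthase joins these units into palmitate with NADPH as the reductant. In liver the pathway follows feeding, through insulin acting on SREBP-1c and sugars acting on ChREBP, and mice eat mainly in the dark.

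Promoter windows are shown for 3 members picked after their values were seen: Thrsp and Fasn, whose ZT12 libraries lay above those of ZT2, and Acss2, whose ZT12 libraries lay below them. The windows are from RefSeq (build GRCm38.p6) and run from 250 bases before to 50 bases after a transcription start. They lie at chr7:97417501-97417800 on the minus strand (Thrsp), chr11:120824498-120824797 on the minus strand (Fasn) and chr2:155517793-155518092 on the plus strand (Acss2). Capitals mark CCAAT, the letters of the NF-Y box, and GGGCGG, those of an Sp1 box, on either strand.
Thrsp: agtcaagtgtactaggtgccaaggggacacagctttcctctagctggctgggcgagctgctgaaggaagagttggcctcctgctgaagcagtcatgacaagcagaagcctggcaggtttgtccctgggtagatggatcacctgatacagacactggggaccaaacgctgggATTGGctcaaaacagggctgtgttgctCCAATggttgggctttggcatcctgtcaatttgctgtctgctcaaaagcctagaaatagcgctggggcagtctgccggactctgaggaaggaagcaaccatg
Fasn: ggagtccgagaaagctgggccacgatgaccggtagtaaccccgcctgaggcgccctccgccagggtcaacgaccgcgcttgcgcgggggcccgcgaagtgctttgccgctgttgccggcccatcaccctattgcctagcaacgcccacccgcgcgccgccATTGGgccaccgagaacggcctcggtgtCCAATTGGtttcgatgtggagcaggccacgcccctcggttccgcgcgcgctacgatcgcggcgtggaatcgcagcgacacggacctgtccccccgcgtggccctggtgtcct
Acss2: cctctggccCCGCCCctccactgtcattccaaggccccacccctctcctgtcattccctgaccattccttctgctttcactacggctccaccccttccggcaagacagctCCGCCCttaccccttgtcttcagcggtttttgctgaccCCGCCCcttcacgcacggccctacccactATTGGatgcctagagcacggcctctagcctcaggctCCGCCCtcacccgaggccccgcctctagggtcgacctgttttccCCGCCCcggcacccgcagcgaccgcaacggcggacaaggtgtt

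The Thrsp window holds 2 matches to CCAAT and the Fasn window 3, of which 2 overlap on opposite strands. The Acss2 window holds 1 match to CCAAT and 5 to GGGCGG. All 10 members had a window, 14 in all because some have several starts. CCAAT was found in 10 of these 14 windows, against 37.4% of the 32544 windows of the same length in the table, and GGGCGG in 7, against 35.9%. The E-box letters CACGTG were found in 2 windows, of Slc25a1 and Mlxipl, against 7.17% of all windows. AGGTCA, a nuclear receptor site, was found in 2, of Acacb and Acly, against 16.2%. TCACNCCAC, the core of a sterol response element, was found in 1, at the downstream start of Mlxipl, against 1.24%. These counts describe letters, and the disome data do not measure binding.

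Mean disome levels of the 10 genes ran from 13.3 to 1621 RPKM. Thrsp came first with 1621 RPKM ± 1384 (SD, n = 6), rank 84 of the 8941 genes listed. Fasn followed with 215.3 RPKM ± 49.7, Acss2 with 195.5 ± 63.0, Acly with 190.0 ± 54.9 and Me1 with 161.5 ± 22.8 (SD, n = 6 each). The order of these 4 was not resolved, since each of Fasn, Acss2 and Acly lay above the next in only 2 or 3 of the 6 libraries. Slc25a1 and Mlxipl overlapped, at 57.7 RPKM ± 8.60 and 57.5 RPKM ± 6.78 (SD, n = 6). Srebf1 had 33.7 RPKM ± 12.6, Acacb 19.4 RPKM ± 7.47 and Acaca 13.3 RPKM ± 5.77 (SD, n = 6). Acacb was above Acaca in 4 of 6 libraries, those of ZT0 and ZT2. The carboxylases, which catalyse the committed step, thus had the lowest levels per length of the set. Coding lengths recovered from the tables ran from 450 nucleotides in Thrsp to 7512 in Fasn, and the carboxylases had 7035 (Acaca) and 7344 (Acacb).

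**Figure D1:**
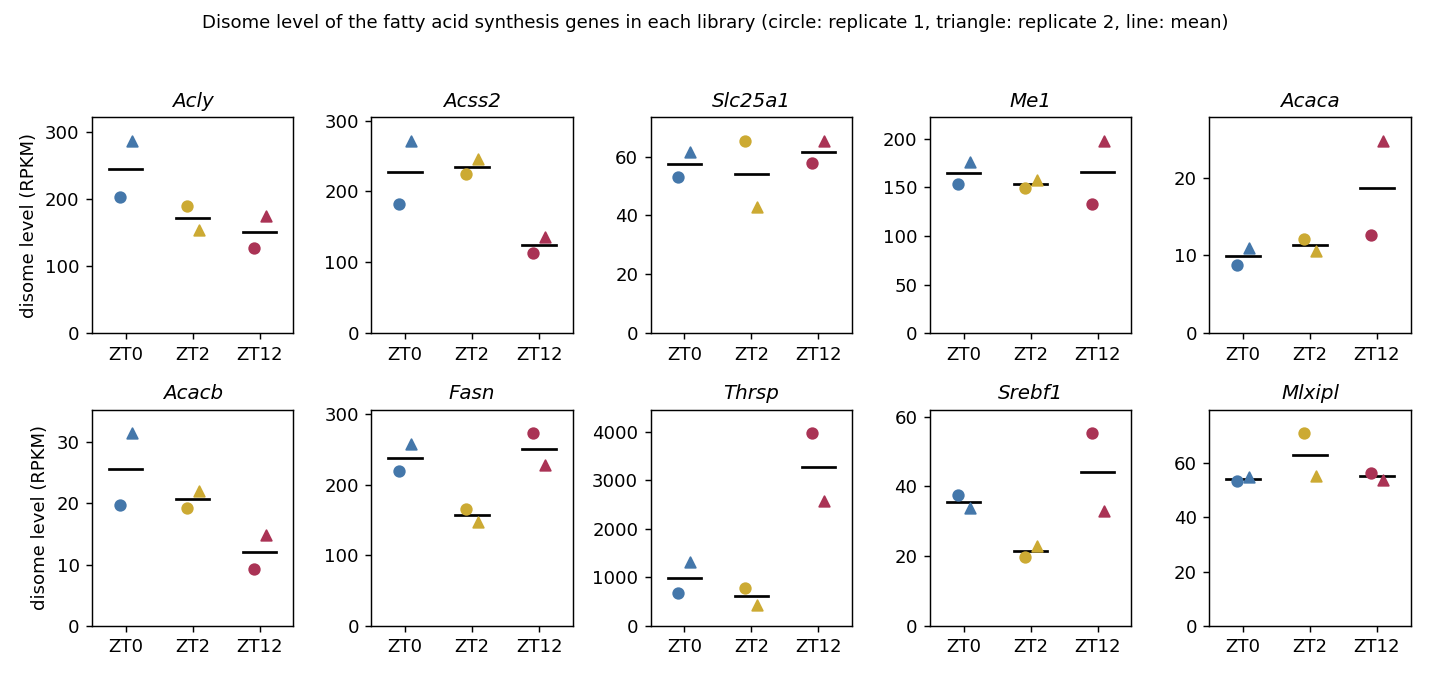
Disome level in RPKM (vertical axis, linear, from 0) of each gene at ZT0, ZT2 and ZT12; points are libraries and lines are means of 2. Both Thrsp libraries at ZT12 are at or above 2576 RPKM and all others at or below 1304 RPKM, whereas Acss2 and Acacb are lowest at ZT12.

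Thrsp had the largest difference between time points. It encodes Spot 14, a small acidic protein induced with lipogenesis and by thyroid hormone, whose relative and binding partner, encoded by Mid1ip1, activates acetyl-CoA carboxylase. Its level was 668.3 and 1304 RPKM (ZT0), 781.9 and 425.2 (ZT2) and 3970 and 2576 (ZT12). Both ZT12 libraries lay above all 4 others, and the ZT0 and ZT2 libraries overlapped. With 2 libraries per time point, the libraries of a pair of time points did not overlap in 45.9% to 54.4% of all genes tested. Separations of libraries, here and below, are therefore descriptions. From ZT2 to ZT12 Thrsp rose, with a ratio of mean RPKM of 5.42. Limma estimates a separate quantity, the difference of mean log2(RPKM + 1), which weights the libraries differently, and put it at 2.47 ± 0.41 (SE; adjusted p = 0.034). Over 18 alternatives the adjusted p ran from 0.0013 to 0.18 and 7 lost the call. These were the fits without any one ZT0 or ZT12 library, the fit restricted to ZT2 and ZT12, array weights and the fit without a variance trend. Against ZT0 the mean RPKM at ZT12 was 3.32 times as high, but limma's difference of mean log2 values, 1.78 ± 0.41 (SE), missed the threshold (limma, adjusted p = 0.117). It passed in 5 of 18 alternatives. Among these were voom on recovered reads (adjusted p = 0.0094), array weights (limma, adjusted p = 0.036) and the fit restricted to ZT0 and ZT12 (limma, adjusted p = 0.047). The others were both fits without a ZT2 library. With no library left out, limma's adjusted p was highest without a variance trend, at 0.186. At ZT2 the mean was 1.63 times lower than at ZT0, with an interval of the log2 change from -1.65 to 0.26 (95%, limma). The values rested on 1475 to 23403 recovered reads per library.

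Acly, ATP-citrate lyase, makes cytosolic acetyl-CoA from exported citrate. Its level was 203.6 and 287.9 RPKM (ZT0), 190.1 and 154.9 (ZT2) and 127.8 and 175.4 (ZT12). Both ZT0 libraries lay above the 4 others, while ZT2 and ZT12 overlapped. Limma put ZT12 minus ZT0 at -0.69 ± 0.24 (SE, log2; adjusted p = 0.261) and ZT2 minus ZT0 at -0.49 ± 0.24 (SE, log2; adjusted p = 0.412), so neither passed. Leaving out 1 library moved the first between -0.94 and -0.44 and the second between -0.743 and -0.245, in each case without ZT0 replicate 1 and without ZT0 replicate 2.

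Acss2, the cytosolic acetyl-CoA synthetase, makes the same product from acetate. It had 182.0 and 271.9 RPKM (ZT0), 224.7 and 245.7 (ZT2) and 112.6 and 135.9 (ZT12). Both ZT12 libraries were below all others, and ZT0 and ZT2 overlapped. The mean RPKM at ZT12 was 1.89 times lower than at ZT2 and 1.83 times lower than at ZT0. Limma's difference of mean log2 values was -0.92 ± 0.22 (SE; adjusted p = 0.094) against ZT2 and -0.84 ± 0.22 (SE; adjusted p = 0.157) against ZT0, so neither passed. Voom on the recovered reads passed both differences (adjusted p = 0.025 against ZT2 and 0.045 against ZT0), and the other 17 alternatives passed neither at 0.05. With no library left out, limma's adjusted p reached 0.277 against ZT2, with array weights, and 0.269 against ZT0, without a variance trend. A threshold of 0.1, applied only to the counts of genes called, would pass the difference against ZT2 and not that against ZT0.

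Slc25a1 is the citrate carrier of the inner mitochondrial membrane, and Me1, cytosolic malic enzyme, supplies NADPH. Slc25a1 had 53.2 and 61.7 RPKM (ZT0), 65.5 and 43.0 (ZT2) and 57.8 and 65.2 (ZT12). Me1 had 153.4 and 176.7 RPKM (ZT0), 149.8 and 157.5 (ZT2) and 133.2 and 198.3 (ZT12). The time points overlapped for both genes in every comparison, and the highest library was 1.52 times the lowest for Slc25a1 and 1.49 times for Me1. From ZT2 to ZT12 the 95% interval of the log2 change ran from -0.35 to 0.77 for Slc25a1 and from -0.43 to 0.59 for Me1 (limma), so changes beyond 2-fold lie outside it.

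The log2 changes of the acetyl-CoA carboxylases to ZT12 had opposite signs, and the difference between the 2 genes was not tested. Acaca encodes the cytosolic enzyme, whose malonyl-CoA is used for synthesis. Acacb encodes the form at the mitochondrial surface, whose product inhibits fatty acid import through carnitine palmitoyltransferase. Acaca had 8.80 and 11.0 RPKM (ZT0), 12.1 and 10.6 (ZT2) and 12.6 and 24.8 (ZT12). Its ZT12 libraries were above the 4 others, but replicate 1 only narrowly so and replicate 2 at about 1.96 times replicate 1. Acacb ran the other way, with 19.8 and 31.5 RPKM (ZT0), 19.3 and 22.1 (ZT2) and 9.20 and 14.8 (ZT12). Both its ZT12 libraries were below the 4 others. For ZT12 minus ZT0, limma gave 0.79 ± 0.34 (SE, log2; adjusted p = 0.344) in Acaca and -1.03 ± 0.31 (SE, log2; adjusted p = 0.20) in Acacb, so neither passed. The Acaca difference was 1.25 without ZT12 replicate 1 and 0.33 without ZT12 replicate 2, and the Acacb difference ran from -1.36 without ZT0 replicate 1 to -0.71 without ZT0 replicate 2. With no library left out, the adjusted p in Acaca ran from 0.147 with voom on recovered reads to 0.365 in limma without a variance trend. In Acacb it ran from 0.039 to 0.262 in the same 2 fits. Over 18 alternatives Acaca had 0 calls and Acacb 1 call, from voom. Unadjusted, limma's p was 0.0501 in Acaca and 0.0125 in Acacb.

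Within a library, the ratio of these enzymes does not depend on the scaling between libraries. Acacb over Acaca was 2.25 and 2.86 (ZT0), 1.59 and 2.09 (ZT2) and 0.729 and 0.598 (ZT12). Acacb was the higher of the pair in all 4 libraries of ZT0 and ZT2 and the lower in both of ZT12. The ratio rested on 436 to 2151 reads of Acaca and 873 to 1784 of Acacb per library. It was taken up after the values had been seen, and no test is given for it. Fasn over Acss2, a ratio chosen in the same way, was 1.20 and 0.949 (ZT0), 0.740 and 0.601 (ZT2) and 2.43 and 1.67 (ZT12). Thrsp over Fasn was 3.05 and 5.06 (ZT0), 4.71 and 2.88 (ZT2) and 14.5 and 11.3 (ZT12). Other ratios were also computed. Fasn over Acaca was 24.9 and 23.4 (ZT0), 13.7 and 14.0 (ZT2) and 21.7 and 9.19 (ZT12), so ZT12 did not stand apart. Acly over Acss2 was 1.119 and 1.059 (ZT0), 0.846 and 0.63 (ZT2) and 1.135 and 1.291 (ZT12). Fasn over Acly was 1.075 and 0.896 (ZT0), 0.874 and 0.953 (ZT2) and 2.138 and 1.297 (ZT12).

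**Figure D2:**
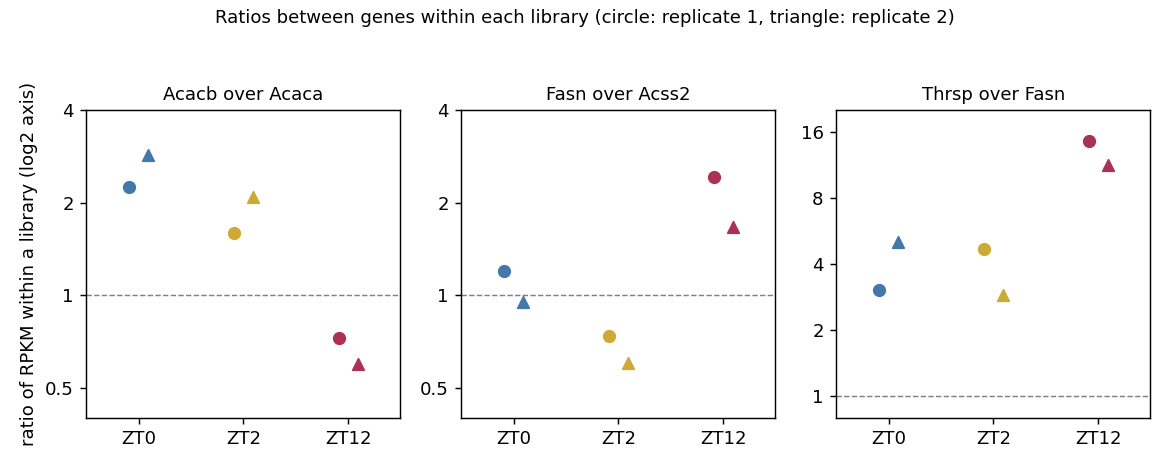
Ratio of RPKM between genes within each library (vertical axis, log2 spacing; dashed line at a ratio of 1) at ZT0, ZT2 and ZT12, 1 point per library. Acacb over Acaca lies between 1.59 and 2.86 at ZT0 and ZT2 and below 1 in both ZT12 libraries, and Fasn over Acss2 and Thrsp over Fasn are highest in the ZT12 libraries.

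Fasn is the multifunctional enzyme that assembles palmitate. It had 218.8 and 258.0 RPKM (ZT0), 166.2 and 147.7 (ZT2) and 273.3 and 227.5 (ZT12). The ZT2 libraries were below the 4 others, and ZT0 and ZT12 overlapped. Limma put ZT12 minus ZT2 at 0.67 ± 0.18 (SE, log2; adjusted p = 0.11) and ZT2 minus ZT0 at -0.60 ± 0.18 (SE, log2; adjusted p = 0.253). Over 18 alternatives the adjusted p of the first ran from 0.048 with voom on recovered reads, its 1 call, to 0.302 in limma. Fasn carried more reads than any other member in each library, 7707 to 26890.

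Srebf1 encodes SREBP-1, the membrane-bound transcription factor that insulin activates and that drives most genes of this pathway. Its level was 37.5 and 33.7 RPKM (ZT0), 19.9 and 23.0 (ZT2) and 55.3 and 33.0 (ZT12). As with Fasn, both ZT2 libraries were the lowest, and ZT12 spanned the values of ZT0. The mean RPKM at ZT12 was 2.06 times that at ZT2, and limma's difference of mean log2 values was 0.97 ± 0.27 (SE; adjusted p = 0.121). With no library left out, its adjusted p ran from 0.041 with voom on recovered reads to 0.252 in limma with array weights. Over 18 alternatives voom gave the 1 call. Limma put ZT2 minus ZT0 at -0.71 ± 0.27 (SE, log2; adjusted p = 0.327).

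Mlxipl encodes ChREBP, the factor that responds to glucose metabolites. It had 53.3 and 55.1 RPKM (ZT0), 71.2 and 55.3 (ZT2) and 56.4 and 53.9 (ZT12). Its highest library was 1.34 times its lowest, the smallest such ratio of the 10 genes. The 95% interval of its log2 change from ZT0 to ZT12 was -0.42 to 0.47 (limma). Srebf1 over Mlxipl was 0.703 and 0.613 (ZT0), 0.279 and 0.415 (ZT2) and 0.980 and 0.612 (ZT12), lowest in the ZT2 libraries. This ratio too was taken up after the values had been seen, without a test.

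**Figure D3:**
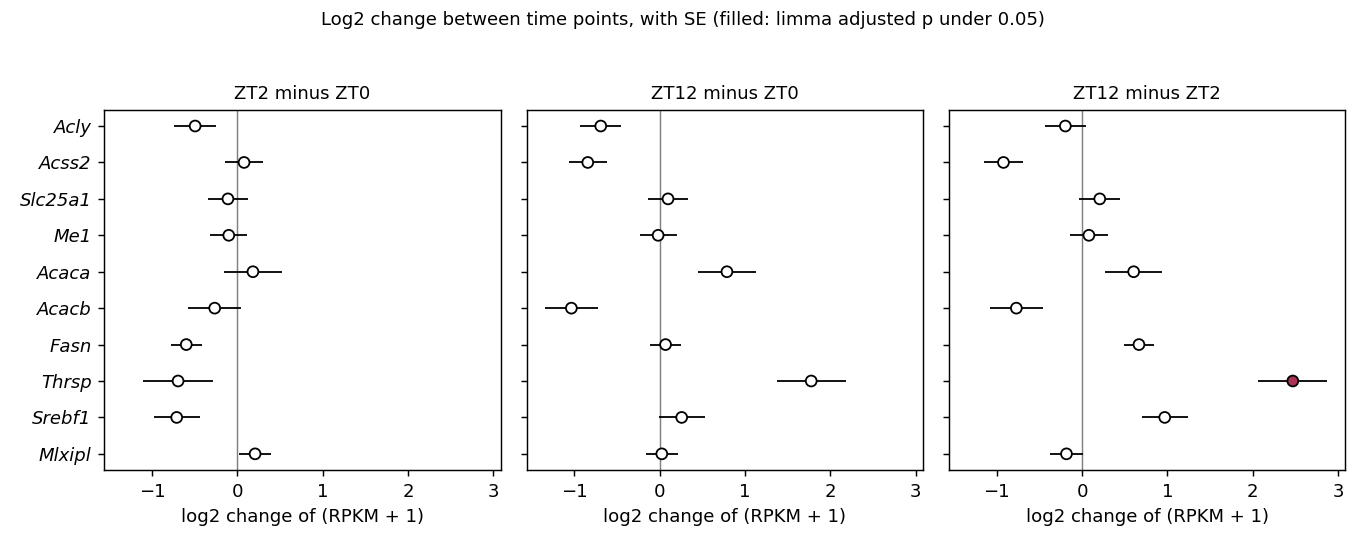
Log2 change of RPKM + 1 (horizontal axis) of each gene for ZT2 minus ZT0, ZT12 minus ZT0 and ZT12 minus ZT2, with bars of 1 SE from limma. The filled point, Thrsp from ZT2 to ZT12 at 2.47, is the only one past an adjusted p of 0.05; Acaca and Acacb lie on opposite sides of 0 at ZT12.

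Counted over the set, 1 of 10 members passed limma's test from ZT2 to ZT12, against 2.06% of the 8355 genes tested. From ZT0 to ZT12 limma called 0 of 10 (0.946% of all genes), from ZT0 to ZT2 it called 0 of 10 (0.0239%), and the F test over the 3 time points called 0 of 10 (1.26%). At an unadjusted p under 0.05, limma counted 5 of 10 members from ZT2 to ZT12, against 19.2% of all genes. The same count was 4 of 10 from ZT0 to ZT12 (14.5%), 2 of 10 from ZT0 to ZT2 (13.7%) and 5 of 10 in the F test (18.6%). Voom on the recovered reads called more genes in all: 4 of 10 members from ZT2 to ZT12 (4.25% of all genes), 3 from ZT0 to ZT12 (3.39%), 0 from ZT0 to ZT2 (0.108%) and 2 in the F test (4.23%). The 3 comparisons share libraries and are not independent of each other. The members were chosen with earlier results of these data known, so these counts are a description and no test of an excess was made.

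The members did not share 1 direction. From ZT2 to ZT12, 6 members had a positive and 4 a negative log2 change, with a median of 0.14 against 0.03 over all genes tested. Of all genes tested, 52.3% had a positive change. The libraries did not overlap for 6 of 10 members, against 45.9% of all genes. Acaca, Fasn, Thrsp and Srebf1 were higher at ZT12 (23.6% of all genes), and Acacb and Acss2 lower (22.3%). From ZT0 to ZT12 the median was 0.05 against -0.01, and 5 of 10 did not overlap (54.4% of all genes), with Acaca and Thrsp higher and Acacb, Acly and Acss2 lower. From ZT0 to ZT2, 7 of 10 had a negative log2 change, with a median of -0.19 against -0.04. Of all genes tested, 46.4% had a positive change in this comparison. There 4 of 10 did not overlap (46.4% of all genes), Mlxipl higher and Fasn, Acly and Srebf1 lower. These non-overlap counts, taken over both directions, lie near the background shares. The share of all genes in which 1 time point lay apart from both others is not given here.

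The 10 genes together held 0.371% and 0.491% of recovered reads (ZT0), 0.340% and 0.304% (ZT2) and 0.560% and 0.484% (ZT12). The exact Clopper-Pearson 95% interval, which covers counting error only, was 0.300% to 0.308% for the lowest share and 0.556% to 0.565% for the highest. Both ZT2 libraries were lowest, and ZT12 replicate 2 lay just under ZT0 replicate 2. Without Thrsp the shares were 0.341% and 0.433% (ZT0), 0.306% and 0.286% (ZT2) and 0.370% and 0.364% (ZT12). Thrsp made up 7.94% and 11.8% of the members' reads (ZT0), 10.1% and 6.18% (ZT2) and 33.9% and 24.8% (ZT12). Acly made up 17.8% and 19.1% of them at ZT0 and 8.01% and 12.4% at ZT12, and Fasn between 35.7% and 43.4% in every library.

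**Figure D4:**
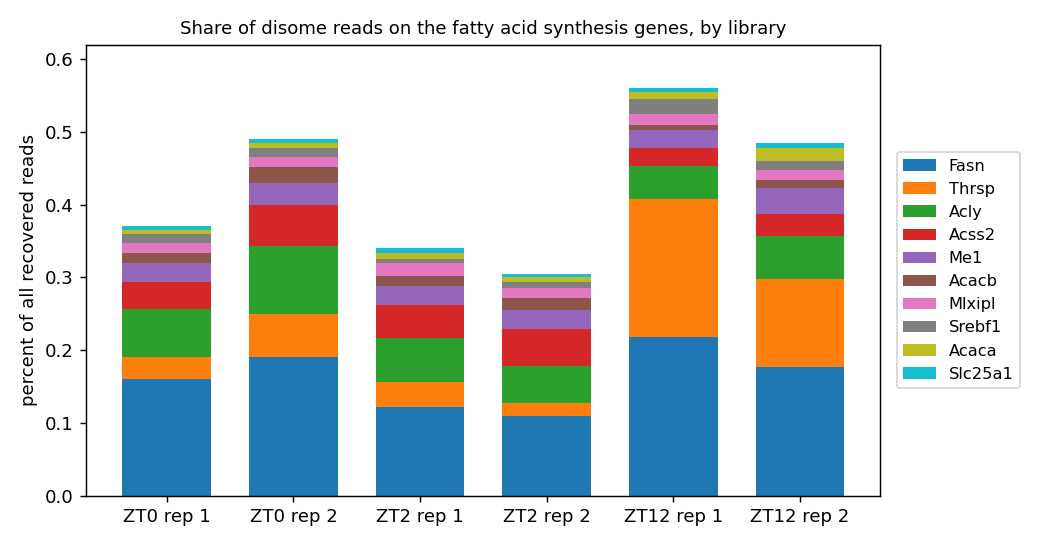
Percent of all recovered reads (vertical axis, from 0) on each of the 10 genes, stacked, 1 bar per library. The stacks range from 0.304% in ZT2 replicate 2 to 0.560% in ZT12 replicate 1, and the Thrsp segment is largest in both ZT12 libraries.

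Recovered reads per library totalled from 6346853 to 12323603, with the higher totals at ZT12. The spread between replicates of these genes was above that of a reference set of well-covered genes at ZT0 and ZT12 and below it at ZT2, without a test. Coverage was not matched, since Slc25a1 had only 309 to 751 reads per library. The median ratio between the higher and the lower replicate for the members was 1.22 (ZT0), 1.15 (ZT2) and 1.43 (ZT12), against 1.10, 1.21 and 1.14 for the 1551 genes with a mean of at least 500 reads. Over all genes the ZT2 replicates agreed least, with a Pearson r of 0.948, against 0.989 (ZT0) and 0.976 (ZT12). In limma the time points share 1 spread per gene, so the ZT2 libraries also enter the test of ZT12 against ZT0. The widest gaps were in Thrsp at ZT0 (1.95) and ZT2 (1.84) and in Acaca at ZT12 (1.96). At ZT0, 9 of the 10 members were higher in replicate 2, whereas 48.7% of all tested genes were; the members of 1 library are not independent. Without ZT0 replicate 1 or 2, the difference of Thrsp from ZT0 to ZT12 was 1.29 or 2.26 on the log2 scale.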

How the data were processed

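The authors deposited 1 RPKM table for each of the 6 disome libraries, listing 8941 Ensembl identifiers without symbols. The submitters' processing notes name the tools Bowtie2 2.3.0, STAR, StringTie, edgeR, CASAVA 1.82 and cutadapt, and the builds mm10 and GRCm38.p2. The role of each tool, the annotation and the filter on genes were not given in the sources used here. Whole reads were recovered from steps in the RPKM values: ratios within a gene were whole-number ratios, to a relative tolerance of 5e-13, for 99.99% of genes, and 1 gene was solved and 74 were corrected through their length. Reads that share a factor in all 6 libraries can still be too low.

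The main test was limma 3.58.1 (R 4.3.3) on log2(RPKM + 1), a scale that understates changes of low genes. It used the 8355 genes that averaged 1 RPKM or more, all 6 libraries, a mean per time point, a variance trend and Benjamini-Hochberg adjustment over all genes tested, with 0.05 as the threshold. The method was tested on simulated data. All 10 members are named, under the symbols that the rule for choosing them pairs with their identifiers. Lists of related pathway genes and of cell type markers were not analysed here, because none of the 49997 genes in the RefSeq table has an Ensembl identifier (0 genes). The members and the lists were chosen with earlier results of these data known. Alternatives changed the pseudocount, filter, scaling, variance prior, array weights, threshold or libraries fitted, used the replicate number as a block, ran voom on recovered reads, or left out each library in turn. Deviations of same-numbered libraries correlated at -0.076 to 0.018, so the numbers were not treated as pairs.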

Additional observations from a re-analysis of the deposited data

How the results depend on the processing

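Counts of all genes called are in parentheses. The 1 member called from ZT2 to ZT12 (172), Thrsp, became 0 without the variance trend (80), with array weights (57) and on only the 4 libraries compared (39), 2 at an adjusted p of 0.1 (423) and 4 with voom (355); leaving out each library gave 0 to 1. From ZT0 to ZT12 the count of 0 (79) became 1 with array weights (414), 1 on the 4 libraries compared (282) and 3 with voom (283), and was 0 to 1 with a library left out. For the F test it (105) became 1 with a filter at 5 RPKM (144), 1 with quantile normalization (131), 1 at an adjusted p of 0.1 (305) and 2 with voom (353), and was 0 to 1 with a library left out. The cause was not tested. From ZT0 to ZT2 it was 0 in all 19 alternatives. With the replicate block the counts, from ZT0 to ZT2, ZT0 to ZT12, ZT2 to ZT12 and in the F test, were 0, 0, 1 and 0, as without it. A library left alone at its time point is assumed to vary like the others.

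Of 540 log2 changes under alternatives, 507 kept their direction and side of the threshold, 7 lost the call, 10 gained it and 16 changed sign. None of the 16 belonged to a called value. From ZT0 to ZT12, Me1 went from -0.018 to 0.077 with equal totals and 0.040 with quantile normalization. With 1 library left out, signs turned within -0.59 to 0.057 (Acacb), -0.20 to 0.002 (Me1), -0.21 to 0.37 (Acss2) and -0.41 to 0.19 (Slc25a1) from ZT0 to ZT2. From ZT0 to ZT12 they turned within -0.062 to 0.20 (Fasn), -0.30 to 0.27 (Me1), -0.11 to 0.62 (Srebf1), -0.007 to 0.20 (Slc25a1) and -0.007 to 0.058 (Mlxipl). From ZT2 to ZT12 they turned within -0.42 to 0.031 (Acly), -0.20 to 0.37 (Me1) and -0.091 to 0.51 (Slc25a1). Equal totals shifted all genes, whose median from ZT2 to ZT12 became 0.12. Without the 15 most abundant genes in the total, the members' share of reads was 0.421% to 0.758%.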
